A study of Mus musculus with 6 samples.

Results

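The circadian clock genes described here are Arntl, Clock, Per1, Per2, Per3, Cry1, Cry2, Nr1d1, Nr1d2 and Dbp, chosen by name from the core of the clock. All 10 were listed, under 11 of the 25017 entries and 10 of the 20458 gene names of the expression table. Each entry stands for the transcripts of a gene with a common coding sequence, and Arntl was the only member with more than 1. Values were summed over the entries of a gene.

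The RNA came from follicular B cells, the main recirculating mature B cells of spleen, sorted as B220+AA4.1-CD23+CD21lo from C57BL/6 mice, 3 of them CD23Cre+Myh9wt/fl and the other 3 CD23Cre+Myh9fl/fl. Myh9 encodes the heavy chain of the motor protein myosin IIa, and Cre recombinase expressed from the CD23 promoter deletes the floxed part of 1 allele in wt/fl and of both alleles in fl/fl B cells, so that both groups carried Cre and the control was haploinsufficient. The authors pooled the 3 samples of a genotype into 1 value, given as FPKM (sequenced fragments corrected for transcript length and library size). No value below therefore has a spread between mice or a test, read depth is unknown, and a difference between the genotypes cannot be told apart from a difference between the mice or the hours at which they were sampled, which are not given in the sources used here.

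The mammalian clock is a transcriptional feedback loop that runs in nearly every cell, lymphocytes included. CLOCK and BMAL1, the product of Arntl, bind E-box elements and activate the Per and Cry genes, whose proteins return to the nucleus and repress that activation. A second loop runs through the nuclear receptors REV-ERBα and REV-ERBβ, encoded by Nr1d1 and Nr1d2, which compete with ROR receptors on RORE elements and repress Arntl, while DBP and its relatives act on D-box elements. Arntl therefore peaks at the opposite time of day from Nr1d1, Dbp and the Per genes in most tissues.

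The elements through which the loop is wired were searched by their letters in the promoters of the members, from 250 bases before to 50 bases after each transcription start, in the RefSeq sequence of build GRCm38.p6. Of the 10 members 9 had a promoter entry, with 13 windows of 300 bases in all because several genes have more than 1 start, and Per2 had none. The search on both strands used the E-box CACGTG, which reads the same on either strand, the E'-box CACGTT with its reverse complement AACGTG, the D-box as TTATGTAA or TTATGCAA, and the RORE by its usual consensus. These motifs do not overlap each other in the windows of the members. The stretches that hold a match are shown here because elements of these kinds are the ones through which clock proteins are known to act on clock genes. Each is read 5′ to 3′ on the strand of its gene, with the matched motif in capitals.
Cry1, E'-box and E-box, chr10:85185084-85185158, minus strand: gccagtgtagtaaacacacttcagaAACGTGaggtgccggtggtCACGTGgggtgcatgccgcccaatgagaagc
Cry2, E'-box, chr2:92434205-92434260, minus strand: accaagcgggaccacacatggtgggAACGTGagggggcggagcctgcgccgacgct
Nr1d1, E'-box, chr11:98775378-98775430, minus strand: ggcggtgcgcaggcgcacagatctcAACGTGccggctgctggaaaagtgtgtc
Per1, E-box, chr11:69098758-69098813, plus strand: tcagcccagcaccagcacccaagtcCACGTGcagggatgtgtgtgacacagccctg
Per1, D-box, chr11:69098900-69098948, plus strand: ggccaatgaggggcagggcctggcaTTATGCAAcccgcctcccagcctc
Per3, D-box at 2 sites, chr4:151044791-151044895, minus strand: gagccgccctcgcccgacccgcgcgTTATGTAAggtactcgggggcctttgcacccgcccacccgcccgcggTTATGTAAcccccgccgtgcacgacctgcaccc
Arntl, RORE, chr7:113207528-113207556, plus strand: ggaaggcagAAAGTAGGTCAgggacggag

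The E-box letters stood in the windows of Cry1 and Per1, beginning 60 and 166 bases before the start, and in 7.15% of all 32851 promoter windows of the RefSeq table. The E'-box was found in Cry1, Cry2 and Nr1d1, beginning 79, 166 and 28 bases before the start, and in 4.68% of all windows. The D-box occurred in Per1, 24 bases before the start, and at 2 sites in Per3, 205 and 158 bases before it, against 1.66% of all windows. Both the E-box and the D-box of Per1 lay in the same 1 of its 2 windows. A single member, Arntl, held the RORE, at bases 27 to 37 counted from 1 at a start, and 0.384% of all windows did. Counted by window, as these shares are, the E-box stood in 2 of the 13 member windows and the E'-box in 3. The D-box stood in 2 of them and the RORE in 1. No match was found in the windows of Clock, Nr1d2 and Dbp, which says only that these letters are not in those windows. A match describes the sequence and not binding, which was not measured in these cells.

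**Figure D1:**
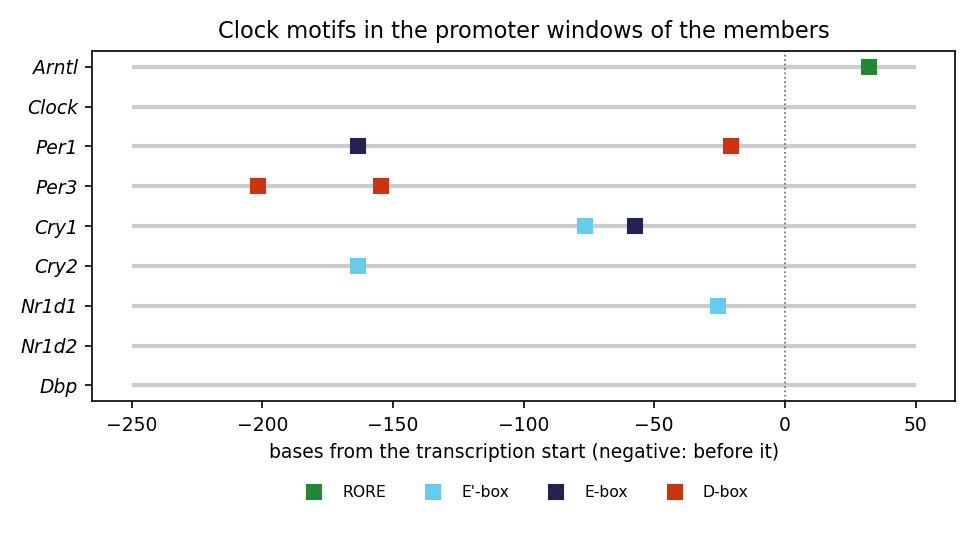
Position of each motif match in the promoter windows of 9 clock genes, in bases from the transcription start; each grey line is a window from 250 bases before to 50 bases after the start, windows of several starts of 1 gene share a line, and colors give the motif. Cry1, Cry2, Nr1d1, Per1 and Per3 carry their matches before the start and Arntl carries its RORE after it.

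The labels of the genotypes were checked on Myh9 itself, which stood at 50.6 FPKM in wt/fl against 21.1 FPKM in fl/fl cells, 41.7% of the control. Markers of B cells were abundant in both genotypes, with all 10 listed genes present at a summed 5378 FPKM in wt/fl against 5655 FPKM in fl/fl. Markers of other cells were present as well: the 8 T cell genes summed to 25.5 and 23.6 FPKM, 9 macrophage and monocyte genes to 19.2 and 17.5 FPKM, the 10 neutrophil genes to 379 and 68.0 FPKM, and the 6 erythroid genes to 56.1 and 8.01 FPKM, each in wt/fl and fl/fl in that order. Of the neutrophil markers 7 of the 8 that could be compared were more than 1.5-fold lower in fl/fl, beside 1.53% of all compared genes. Of the 10 neutrophil genes listed, Elane and Mpo were at 0 in at least 1 genotype. The single erythroid marker compared, of 6 listed, was also more than 1.5-fold lower. The part of these cells in the clock values was not tested, and in bulk RNA fewer cells of a type and less RNA per cell cannot be told apart.

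The clock genes spanned a wide range of levels, in nearly the same order in both genotypes. Arntl, Clock and Per1 lay highest, near 10 FPKM, followed by Cry1, Cry2 and Nr1d2 between 5.24 and 9.08 FPKM, then Per2 and Per3 between 1.58 and 3.47 FPKM, and Dbp and Nr1d1 at or under 1.12 FPKM. The order of the 10 levels was the same in wt/fl and fl/fl apart from Clock and Per1, which traded ranks 2 and 3 at 10.3 and 10.2 FPKM in wt/fl and 9.76 and 10.4 FPKM in fl/fl. Because there is 1 value per genotype, no pair of neighbours in this order can be said to differ beyond its spread. Set among all gene names of the table, Arntl stood at percentile 72.1 of mean FPKM and Nr1d1, the lowest member, at percentile 44.3. Summed over the 10 members, clock gene expression was 60.1 FPKM in wt/fl against 56.5 FPKM in fl/fl.

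**Figure D2:**
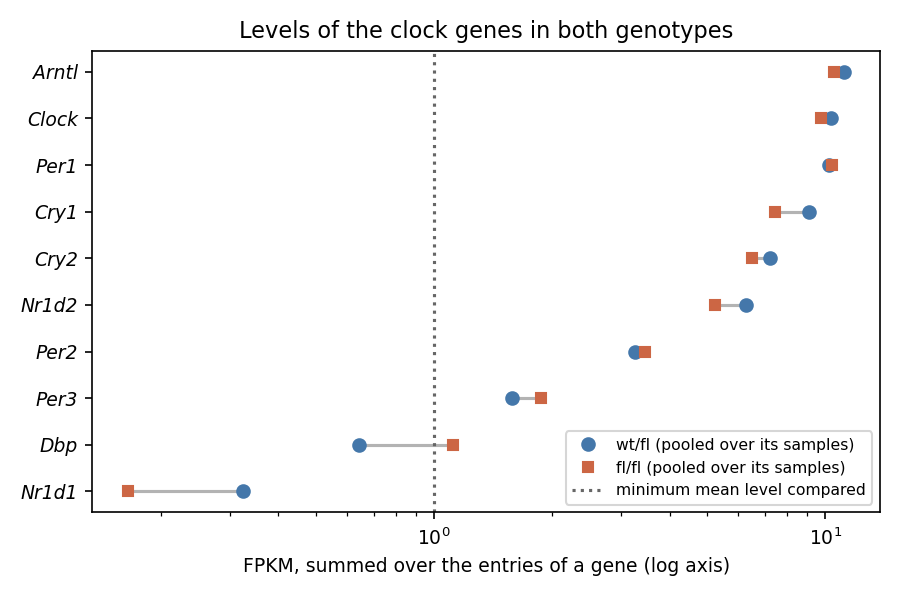
FPKM of the 10 clock genes on a log axis, as the authors' pooled value for wt/fl (circles) and fl/fl (squares), with the dotted line at the lowest mean level compared, 1 FPKM. The pairs of points lie close together from Arntl (11.2 and 10.5 FPKM) to Per3 (1.58 and 1.88 FPKM) and lie apart for Dbp and Nr1d1, at the bottom of the range.

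The difference between the genotypes was taken as the log2 ratio of fl/fl over wt/fl, after adding 1 to each FPKM, for genes whose mean over both genotypes reached 1 FPKM, and a gene was called where it passed 1.5-fold on that scale. This kept 8 of the 10 members among 9866 genes. None of the 8 members was called, in either direction, where 0.791% of all compared genes were called higher and 1.53% lower in fl/fl. At a smaller fold, a log2 ratio of 0.32 in either direction, the count of members was again 0, against 4.6% of all compared genes higher and 5.48% lower, so that on this background less than 1 gene of 8 would be called in either case. The members' log2 ratios ran from -0.25 to 0.15, with 3 above 0 and 5 below it and a median of -0.07. Of all 9866 compared genes 4986 had a ratio above 0 and 4880 below it. The median of all compared genes was 0.00, with 90% of them between -0.34 and 0.31.

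**Figure D3:**
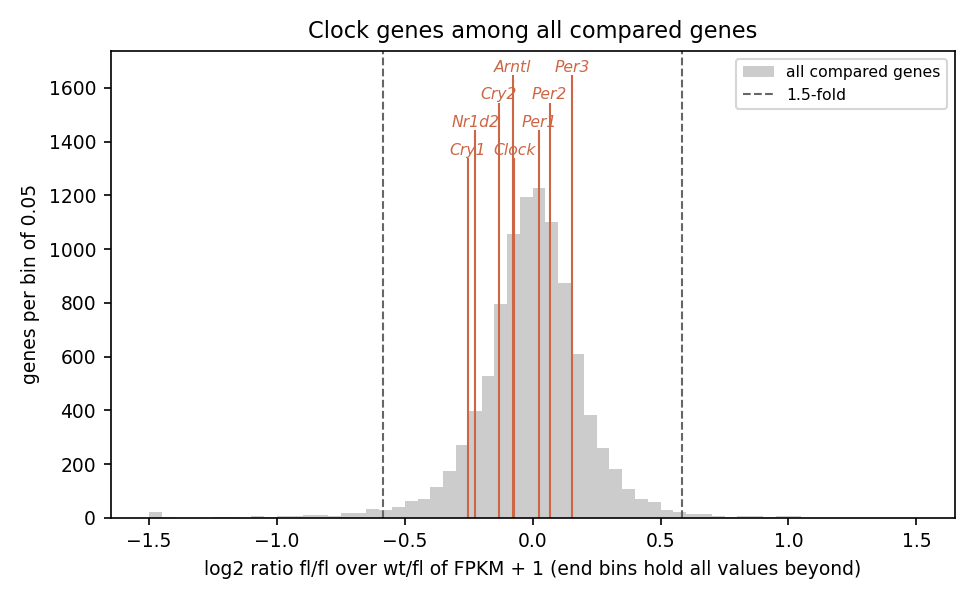
Histogram of the log2 ratio of fl/fl over wt/fl (FPKM + 1) for the 9866 compared genes in bins of 0.05, with dashed lines at 1.5-fold and an orange line for each of the 8 clock genes compared. All 8 lie inside the dashed lines, from Cry1 at -0.25 to Per3 at 0.15.

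Arntl and Clock, which encode the activating pair, were near each other in level and in their difference between genotypes. Arntl (chr7:120350978-120457640 on mm9, the build of the deposited positions) had 11.2 FPKM in wt/fl against 10.5 FPKM in fl/fl, a log2 ratio of -0.08. Its 2 entries stood at 9.77 and 1.40 FPKM in wt/fl and at 9.48 and 1.06 FPKM in fl/fl, so that the major one made up 87.5% and 90.0% of the gene. Clock (chr5:76641201-76733573), whose product also acetylates histones, had 10.3 FPKM in wt/fl against 9.76 FPKM in fl/fl, a log2 ratio of -0.07. The level of Clock relative to Arntl was 0.924 in wt/fl cells and 0.927 in fl/fl cells; the log2 of this ratio differed by 0.00 between the genotypes.

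The Per genes, which encode the scaffold of the repressor complex, were, of the 8 members compared, the 3 with log2 ratios above 0. Per1 (chr11:68912457-68923459) is an acutely inducible member with an E-box and a D-box in 1 of its 2 windows. It had 10.2 FPKM in wt/fl against 10.4 FPKM in fl/fl, a log2 ratio of 0.02. Per2 (chr1:93312558-93355905), whose loss is known to disrupt behavioral rhythms, had 3.27 and 3.47 FPKM, a log2 ratio of 0.07. Per3 (chr4:150377763-150418731), which is dispensable for the core rhythm and whose window holds a pair of D-boxes, had 1.58 and 1.88 FPKM, and its log2 ratio of 0.15, the highest of the members compared, stood at percentile 82.6 of all compared genes. Per1 was 3.14 times as high as Per2 in wt/fl and 3.01 times in fl/fl, and 6.47 and 5.56 times as high as Per3. The 3 genes summed to 15.1 FPKM in wt/fl against 15.8 FPKM in fl/fl.

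The Cry genes, which encode the direct repressors of CLOCK and BMAL1, were both lower in fl/fl without passing the fold. Cry1 (chr10:84594444-84647799) had 9.08 FPKM in wt/fl against 7.46 FPKM in fl/fl, 82.1% of the control. Its log2 ratio of -0.25 was the lowest of the members compared and stood at percentile 8.87 of all compared genes, so that a ratio this low or lower was held by about 1 gene in 10. Cry2 (chr2:92243803-92274226) had 7.21 FPKM in wt/fl against 6.48 FPKM in fl/fl, a log2 ratio of -0.13 at percentile 20.8. Of the 6320 exon bases of Cry2, 295 overlap the gene D930015M05Rik, and the counting is not stated to use strand. The ratio of Cry1 to Cry2 was 1.26 in wt/fl cells against 1.15 in fl/fl cells. The pair summed to 16.3 and 13.9 FPKM.

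The nuclear receptors of the second loop differed widely in level. Nr1d2 (chr14:19036569-19071620), encoding REV-ERBβ, had 6.29 FPKM in wt/fl against 5.24 FPKM in fl/fl, a log2 ratio of -0.22 at percentile 11.1 of all compared genes. Nr1d1 (chr11:98629248-98636556), encoding REV-ERBα and carrying an E'-box in its window, had only 0.324 FPKM in wt/fl against 0.165 FPKM in fl/fl. Nr1d2 thus exceeded Nr1d1 by 19.4-fold in wt/fl and 31.7-fold in fl/fl. With a mean under 1 FPKM, Nr1d1 was not compared; its fl/fl value was 50.9% of the control, a log2 ratio of -0.97 as it stands and -0.18 after adding 1 FPKM. Of its 3077 exon bases 263, or 8.55%, overlap Thra, the gene of a thyroid hormone receptor on the opposite strand, which had 1.57 FPKM in wt/fl against 1.19 FPKM in fl/fl, and reads of the pair cannot be told apart there without strand.

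Dbp, which encodes a transcription factor of the D-box and is a direct output of the loop, had the largest ratio of fl/fl to wt/fl among the 10 members, at a low level. It had 0.642 FPKM in wt/fl against 1.12 FPKM in fl/fl, a ratio of 1.74 that corresponds to a log2 ratio of 0.80 as it stands and 0.37 after adding 1 FPKM. Its mean also lay under 1 FPKM, so it was not compared. The position deposited for Dbp, chr7:52960616-52973372, is the same as that of Sphk2, a sphingosine kinase gene with 10.9 FPKM in wt/fl against 11.3 FPKM in fl/fl, and 539 of the 2993 exon bases of Dbp overlap it. How fragments were divided between Dbp and Sphk2 is not given in the sources used here, and the part of Sphk2 in the value of Dbp was not tested.

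Genes that peak at the opposite time from Arntl were set against it within each genotype, as the log2 of the ratio of their FPKM, so that any factor common to all genes of a genotype cancels. Per1 stood at -0.12 relative to Arntl in wt/fl and at -0.01 in fl/fl, Per2 at -1.77 and -1.60, and Per3 at -2.82 and -2.49. These differed by 0.11, 0.17 and 0.33 between the genotypes, each higher in fl/fl. All have Arntl as their denominator, so the lower Arntl value in fl/fl enters each of them. Without an added FPKM, the log2 ratio of fl/fl over wt/fl was -0.08 for Arntl. It was 0.03 for Per1, 0.09 for Per2 and 0.24 for Per3. Nr1d2 went the other way, from -0.83 in wt/fl to -1.01 in fl/fl, a difference of -0.18. For the genes of low level the distances were larger and of opposite sign: Dbp stood at -4.12 in wt/fl and -3.23 in fl/fl, 0.89 higher, and Nr1d1 at -5.11 and -6.00, a difference of -0.89. Dbp and Nr1d1 rest on values near or under 1 FPKM. Dbp has the same deposited position as Sphk2, and some exon bases of Nr1d1 overlap Thra, as given above. None of these differences was tested.

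**Figure D4:**
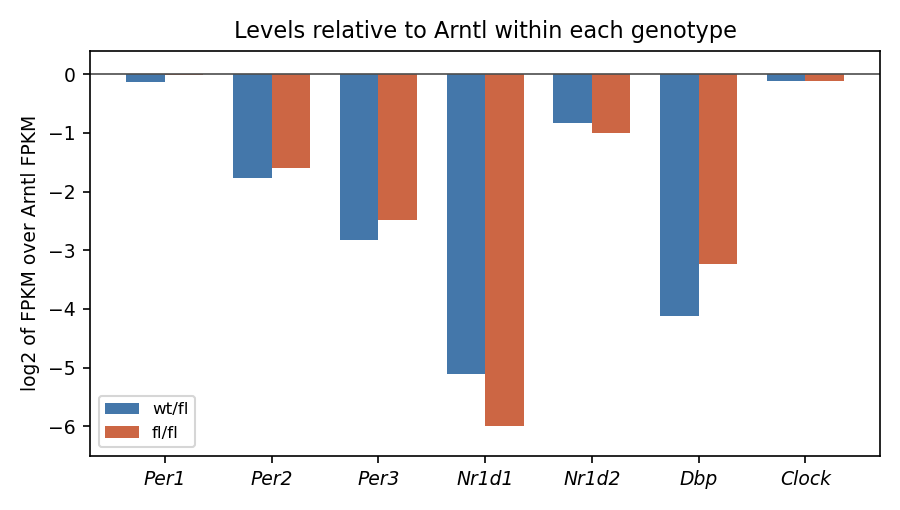
Log2 of the FPKM of 7 clock genes over that of Arntl, for the pooled wt/fl (blue) and fl/fl (orange) values; a bar at 0 would mean the level of Arntl. The bars of Per1 and Clock lie near 0, and those of Nr1d1 and Dbp differ between the genotypes by -0.89 and 0.89.

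The rest of the clock machinery, together with 3 temperature-linked genes, was described by a list of 42 genes in 7 role groups. All were present in the table, and 32 reached a mean of 1 FPKM. The list was chosen with earlier results of these data known, so counts over it are a description only. A single gene of the 32 was more than 1.5-fold higher in fl/fl and none was lower, beside the 0.791% and 1.53% of all compared genes. This gene was Cirbp of the temperature-linked group, a cold-inducible RNA-binding protein known to bind clock transcripts. No other role group held a gene past 1.5-fold. Cirbp had 30.5 FPKM in wt/fl against 60.7 FPKM in fl/fl, a log2 ratio of 0.97. The related cold-inducible gene Rbm3 had 325 and 462 FPKM, a log2 ratio of 0.51 that stayed under the fold, and Hsf1, the heat shock regulator listed with them, had 44.4 and 39.9 FPKM. Of the 32 ratios 12 were above 0 and 20 below it, with a median of -0.05.

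At the smaller fold, a log2 ratio of 0.32, 2 genes of the list were higher (Cirbp and Rbm3) and 2 lower, beside 4.6% and 5.48% of all compared genes. The lower genes were Bhlhe40, a repressor that competes for E-boxes, and Csnk1e, a kinase that phosphorylates PER proteins. Bhlhe40 had 25.7 FPKM in wt/fl against 17.2 FPKM in fl/fl. Its log2 ratio of -0.56, at percentile 1.72 of all compared genes, was just short of 1.5-fold. Csnk1e had 6.92 and 4.91 FPKM, a log2 ratio of -0.42. Csnk1e, like the genes and entries named below for a single entry or a value of 0, was chosen after its values were seen.

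Among the further repressors all 5 genes were compared, with a median log2 ratio of -0.08, and Cipc, an inhibitor of CLOCK, stood at 17.1 and 17.3 FPKM in wt/fl and fl/fl. Of the 12 genes of kinases and protein turnover, which set the stability of PER and CRY proteins, 10 were compared, with a median of -0.08. The most abundant were the casein kinase gene Csnk1a1 (64.9 and 62.0 FPKM) and the deubiquitinase gene Usp7 (55.6 FPKM in both genotypes). All 9 cofactors were compared, at a median of 0.03, led by the RNA-binding partners of PER proteins Nono (88.5 and 94.8 FPKM) and Sfpq (76.0 and 67.0 FPKM). Among the clock-controlled outputs 4 of 5 were compared, at a median of -0.09, and the most abundant were Nampt, an enzyme of NAD synthesis, with 18.4 and 16.3 FPKM, and Por, the electron donor of cytochromes P450, with 8.12 and 7.98 FPKM.

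The activator paralogs, and the ROR receptors of the second loop, were at the lower end of the list. None of the 5 activator paralogs and ROR receptors reached a mean of 1 FPKM: Rorb had 0.526 FPKM in wt/fl against 0.552 FPKM in fl/fl, Npas2 and Rora were listed at 0 in wt/fl, and Arntl2 was listed at 0 in fl/fl. Rora, a ROR receptor and the second of this group by level, had 0.171 FPKM in fl/fl. Of the relatives of Dbp at the D-box, Tef was the 1 compared, at 4.94 and 5.34 FPKM with a log2 ratio of 0.09, well above Dbp itself in both genotypes. Nfil3, the repressor that binds the same element, had 0.805 FPKM in wt/fl against 0.346 FPKM in fl/fl and was not compared.

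**Figure D5:**
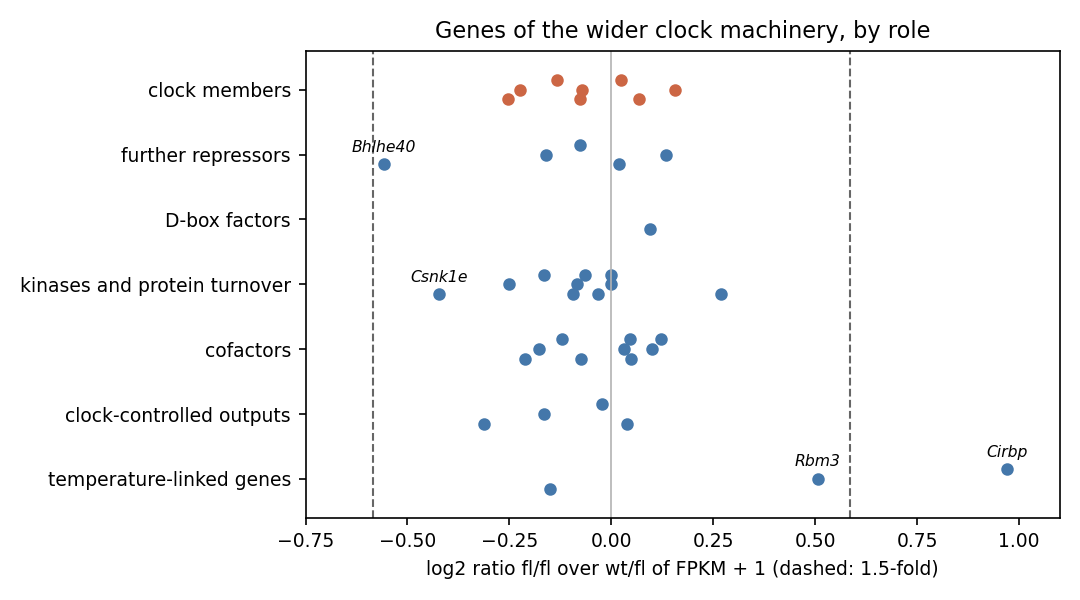
Log2 ratio of fl/fl over wt/fl (FPKM + 1) for each compared gene, with the 8 clock genes in the top row and the wider list in rows by role below; dashed lines mark 1.5-fold, genes at or beyond 0.4 in either direction are named, and the activator paralogs and ROR receptors have no row because none was compared. Cirbp alone lies outside the dashed lines, at 0.97.

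Taken entry by entry, 9 of the 11 entries of the members were compared and 0 passed 1.5-fold, where 2.86% of all 11411 compared entries were higher and 3.37% lower in fl/fl. Over the members and the wider list, 50 of 69 entries were compared, 2 higher and 1 lower. The higher ones were the entry of Cirbp and 1 of 2 entries of Rbm3, with 190 FPKM in wt/fl against 289 FPKM in fl/fl. The lower one belonged to Csnk1d, the casein kinase that phosphorylates PER proteins, with 16.8 FPKM in wt/fl against 9.97 FPKM in fl/fl, while the other entry of that gene had 14.2 and 15.9 FPKM. The first thus made up 54.2% of Csnk1d in wt/fl and 38.5% in fl/fl, at a gene sum of 31.0 and 25.9 FPKM.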

How the data were processed

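RNA of 6 samples (3 wt/fl, 3 fl/fl) was amplified before library preparation. A pooled FPKM per genotype was deposited for each entry, in a table of the authors' own comparison. The submitters' processing notes name Bowtie, TopHat and Cufflinks, with versions not given in the sources used here, and mm10 and GRCm38, whereas the deposited positions are those of mm9; no coordinate was converted. The authors' fold changes, test statistics, p-values and q-values in the table were not used.

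From the FPKM, 44 entries with a date for a symbol were left out (20433 gene names remained), entries were summed per gene, the 9866 genes whose mean reached 1 FPKM were compared and the log2 ratio of FPKM + 1 was computed, which understates differences of low genes. A gene was called past 1.5-fold. The design had foreseen limma for values per sample; with pooled values nothing was tested. The members and lists were chosen with earlier results of these data known. All 10 members are named, with Myh9, the genes of the wider list past 1.5-fold and the 2 most abundant of each role group; 1 gene of the wider list is not reported here. Alternatives were pseudocounts of 0.1 and 0.5, no filter or a mean of 5 FPKM, upper quartile scaling, centring on the median, the highest entry per gene, and folds of 2 and of 0.32 on the log2 scale. Exon overlaps came from GENCODE M21 and promoters from RefSeq. Computations used Python 3.11.15, pandas 2.3.3 and NumPy 2.4.6 and were tested on simulated data.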

Additional observations from a re-analysis of the deposited data

How the results depend on the processing

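With 1 pooled value per genotype, no spread between mice can be given, and read depth, which limits the low genes Dbp and Nr1d1 most, is unknown. No paired analysis was possible because the deposited values are pooled over the 3 samples of a genotype, and for the same reason no replicate was left out. For the 8 members compared, other pseudocounts, scaling or centring, or the choice of entry for Arntl, gave 33 further log2 ratios; the largest shift was 0.08, of Per3 at a pseudocount of 0.1, and 0 changed sign. Dbp and Nr1d1, which were not compared, moved from 0.37 to 0.72 and from -0.18 to -0.68 at that pseudocount. The count of members past the fold was 0 in every other alternative run and 2 with no filter and a pseudocount of 0.1, an alternative chosen after seeing the data, Dbp higher and Nr1d1 lower; there 12.2% of all genes passed. The members' median lay between -0.11 and -0.06. The wider list held 1 gene past the fold as reported, 2 with the highest entry of each gene (Cirbp and Rbm3), 4 at the smaller fold (log2 of 0.32), 0 at a fold of 2, and 4 with no filter and a pseudocount of 0.1. The share of all genes past the fold in these settings was 2.32%, 3.07%, 10.1%, 0.497% and 12.2%, in that order.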
